A study of Mus musculus with 165 samples.

Results

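The deposited Hi-C compartment tracks of ECOMG progenitors and of the untreated neutrophils made from them were compared bin by bin along the mouse autosomes. The members were the autosomal 25 kb bins that carried a non-zero value in both tracks. There were 94818 such bins, covering 2370.45 Mb of build mm9, out of 101351 bins with a value in any of the 4 deposited tracks on any chromosome. A further 4 autosomal bins had a progenitor value alone and 78 a neutrophil value alone. No bin was listed at exactly 0.

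The study followed ECOMG cells, a mouse myeloid progenitor line of C57BL/6 origin that needs GM-CSF and is held in the progenitor state by estradiol. All groups carried the same genotype label, human E2A_ER_Pbx1b with wild type, which names an estradiol-controlled fusion protein that holds back maturation. Neutrophils were obtained in culture after 5 days without estradiol. Activated neutrophils had also received 20 uM of the calcium ionophore A23187 for 15 or 30 min in medium with 1 mM calcium. The progenitor track pooled 7 Hi-C libraries and the untreated neutrophil track pooled 8 libraries from 7 replicates, of which 1 replicate had been amplified in separate PCR replicates. Both groups are therefore states of a conditionally immortalized line in culture, with no primary bone marrow cells for comparison here.

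In situ Hi-C records which stretches of DNA lie close together in the nucleus. The first principal component (PC1) of the contact matrix splits each chromosome into a pair of compartments whose members contact their own kind more often than the other. Compartment A generally holds gene-rich, transcribed and early-replicating chromatin, and compartment B holds gene-poor, repressed chromatin that is often attached to the nuclear lamina. Mature neutrophils are known for a lobed nucleus with large masses of condensed chromatin. Here a positive PC1 is called A and a negative PC1 is called B.

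PC1 is a score without a unit. The values of each autosome were centred on 0 with an SD of 1.00 in both tracks, so each chromosome's own mean sets the border between A and B. Each group had 1 track, so no difference could be set against replicate error and none was tested. The spread given is the range over the 19 autosomes, which are not replicates. The local noise variance, measured as the deviation of each bin from the bins 50 kb either side, was 0.0129 in the progenitor track and 0.0220 in the neutrophil track. This measure also takes in real differences between bins over that distance.

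The compartment map was largely kept from progenitor to neutrophil. Pearson r between the tracks over the 94818 bins was 0.945, and ranged from 0.907 on chromosome 13 to 0.965 on chromosome 17. Compartment A held 42.9% of bins in progenitors and 41.7% in neutrophils, a difference of -1.28 percentage points. In both tracks 36459 bins were A and 51074 bins were B. PC1 lay at least 0.5 units lower in neutrophils in 7264 bins (7.66% of all bins) and at least 0.5 units higher in 5273 bins (5.56% of all bins). At 1 unit or more, 1.16% of bins were lower and 0.554% were higher. The large decreases thus outnumbered the large increases at both sizes.

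The untreated neutrophil map was cut into more pieces than the progenitor map. It had 1812 A segments and 1924 B segments, a segment being an unbroken run of bins of 1 sign, against 1351 and 1464 in progenitors. The median B segment measured 325 kb in neutrophils and 450 kb in progenitors, whereas the median A segment measured 250 kb and 225 kb. Sign changes between neighbouring bins numbered 3530 in untreated neutrophils and 2609 in progenitors. The activated tracks had 2872 at 15 min and 2171 at 30 min, the latter fewer than in progenitors. The untreated neutrophil track also had the higher local noise variance given above, and the activated tracks had 0.0118 at 15 min and 0.00588 at 30 min. The part of that noise in the number of segments was not tested.

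Bins were called switched where the sign changed, the difference in PC1 reached 0.5 RMS (root mean square) of progenitor values, and 2 or more neighbouring bins did so together. By this rule 3066 bins (3.23% of all bins, 76.7 Mb) went from A to B, in 493 runs. In the opposite direction 1473 bins (1.55% of all bins, 36.8 Mb) went from B to A, in 388 runs. A to B made up 67.5% of switched bins. After the neutrophil values of each autosome were given the same distribution as the progenitor values, 2498 bins went from A to B and 1969 from B to A, so A to B made up 55.9%. That step makes the A share of each autosome equal in both tracks, so plain sign changes are then equally many in both directions. The excess that remained lies only in which sign changes met the size and run rules. It is therefore no sign of a net move to B, and the imbalance depended on the scaling.

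The switched stretches were short in both directions and longer from A to B. The median A to B run spanned 5 bins and the longest spanned 850 kb. The median B to A run spanned 3 bins and the longest spanned 775 kb. Runs of 250 kb or more numbered 88 from A to B and 20 from B to A. The A to B bins went from a median PC1 of 0.478 in progenitors to -0.347 in neutrophils. The B to A bins went from -0.365 to 0.444. In the activated tracks, the A to B bins had medians of 0.187 at 15 min and 0.184 at 30 min, and the B to A bins had medians of 0.328 and 0.0496. The bins were picked for opposite signs in both compared tracks, which by itself favours values in between in any other track. This also holds for the single regions and segments named below. The activated libraries were sequenced on other instrument models than the progenitor and untreated libraries, so in these values activation and sequencing batch cannot be told apart.

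Where the switched runs lay within progenitor segments differed between the directions. Of the 493 A to B runs, 324 (65.7%) lay in the interior of a progenitor A segment without touching either end, 127 lay at an edge and 42 covered at least 90% of a segment. The A segments that held the interior runs had a median length of 3150 kb. Of the 388 B to A runs, 216 (55.7%) lay at an edge of a progenitor B segment, 150 in the interior and 22 over a whole segment. By these counts A to B switching was mostly the appearance of B islands inside long A stretches, and B to A switching was mostly the extension of A at an existing border. Most of either compartment lay in long segments to begin with. Segments over 1000 kb held 742.8 of 1017.7 Mb of progenitor A and 1004.78 of 1352.75 Mb of progenitor B. When each run was first extended over all neighbouring bins of opposite sign, the interior share was 61.1% from A to B and 32.5% from B to A.

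The distance from a switched bin to the nearest progenitor border was close to that of all bins of the compartment from A to B, and much shorter from B to A. It had a median of 425 kb for A to B bins, equal to the 425 kb of all progenitor A bins. For B to A bins the median was 75 kb, against 375 kb for all progenitor B bins. Within 25 kb of a border lay 12.9% of A to B bins and 11.6% of all A bins, but 35.2% of B to A bins and 9.94% of all B bins. The switch rule favours bins near 0, and PC1 passes through 0 at a border. Median progenitor PC1 was -0.365 in B to A bins, against a mean of -0.797 in all progenitor B bins. The distance is therefore not independent of the call, and bins of like level were not compared.

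Long A segments were interrupted more often than long B segments. With runs extended as above, 132 of the 262 progenitor A segments over 1000 kb (50.4%, exact binomial 95% interval 44.2 to 56.6) held at least 1 interior switched run, and 69 of them held 2 or more. There were 267 such runs in long A segments, up to 9 in a single segment, or 3.59 per 10 Mb. Of the 427 progenitor B segments over 1000 kb, 82 (19.2%, interval 15.6 to 23.3) held 1, at 1.05 runs per 10 Mb. These intervals cover the counting of segments and not the error of the tracks. The contrast was not recomputed with the neutrophil values given the progenitor distribution, a step on which the balance of directions depended.

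The interior B islands lay in weak spots of A that were surrounded by lower PC1 in neutrophils. For the 301 extended interior A to B runs, the median progenitor PC1 was 0.638 in the run and 0.985 in the 4 A bins either side, with the run the lower of the pair in 285 cases (94.7%). In neutrophils the medians were -0.208 in the run and 0.487 in the flanks. The flanks were lower in neutrophils than in progenitors around 295 of the 301 runs, by a median of -0.467. For the 126 interior B to A runs the picture was mirrored, with medians of -0.447 in the run and -0.730 in the flanks in progenitors, and 0.330 and -0.349 in neutrophils. The rule itself favours bins near 0 in progenitors and neighbouring 50 kb windows share reads, so neither property is independent of the call.

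**Figure D1:**
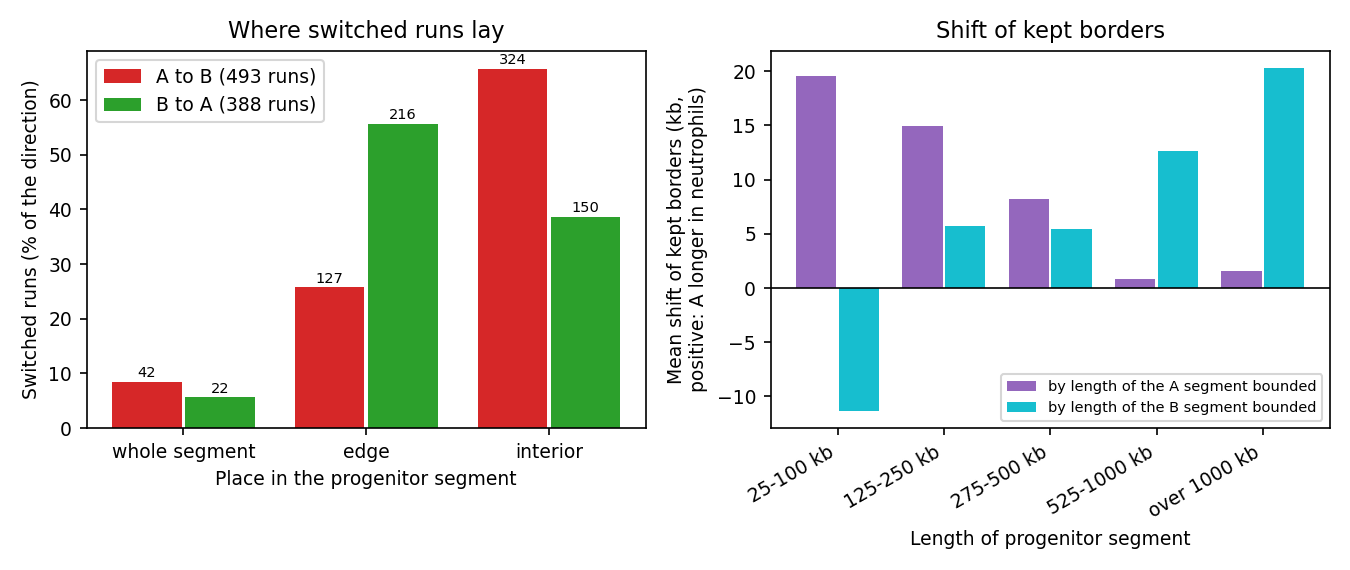
Left, the share of switched runs (percent of each direction) that covered a whole progenitor segment, touched an edge or lay in the interior, with the number of runs above each bar. Right, the mean shift in kb of the progenitor borders kept in neutrophils, by the length of the A or B segment they bounded, where a positive shift means a longer A segment. Interior runs lead from A to B (324 of 493) and edge runs from B to A (216 of 388), and the shift reaches 19.5 kb at the shortest A segments and 20.3 kb at the longest B segments.

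Most borders stayed within reach of their progenitor position, and those that moved did so more often in favour of A. Of 2609 progenitor borders, 2035 (78.0%) had a neutrophil border of the same orientation within 100 kb, from 66.7% on chromosome 6 to 88.3% on chromosome 10. Of the kept borders 657 stayed in the same place, 1017 (50.0%) lay so that the A segment was longer in neutrophils, and 360 (17.7%) so that it was shorter. The mean gain of A was 10.3 kb per kept border, less than 1 bin. A longer was more frequent than A shorter on 18 of the 19 autosomes, with mean gains up to 17.5 kb on chromosome 5. Chromosome 19 was the exception, at -7.95 kb. Counting from the neutrophil borders, which largely pairs the same borders again, gave 1014 with A longer and 369 with A shorter. Of the 3530 neutrophil borders, 1490 had no progenitor partner.

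The gain of A was largest at the borders of short A segments and at the borders of long B segments. Borders of progenitor A segments of 25 to 100 kb gained 19.5 kb of A on average, with A longer at 64.8% of kept borders and shorter at 7.68%. Borders of A segments over 1000 kb gained 1.60 kb. Ordered by the B segment that they bounded, the gain was 20.3 kb at B segments over 1000 kb and -11.3 kb at B segments of 25 to 100 kb. B segments of over 100 and up to 250 kb did not follow those of 25 to 100 kb, with a gain of A of 5.69 kb. Kept borders of segments of 25 to 100 kb thus lay outward on average in either compartment. A segment counted as short was picked for its length in the progenitor track alone, which by itself favours longer counterparts in the other track.

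Segment length also ordered the change in PC1 within A. Progenitor A segments of over 100 and up to 250 kb had a mean PC1 of 0.443 in progenitors and 0.732 in neutrophils, and 246 of the 306 (80.4%) were higher in neutrophils. Those of 25 to 100 kb went from 0.167 to 0.378, with 68.6% higher, and those of over 250 and up to 500 kb from 0.649 to 0.844, with 76.9% higher. The 262 segments over 1000 kb went the other way, from 1.16 to 1.04, and 25.6% of them were higher. Short A islands of the progenitor track were thus higher in neutrophils on average, while its long A stretches, which held most of A, were lower. With segments taken from the neutrophil track instead, 74.8% of A segments of over 100 and up to 250 kb and 40.6% of those over 1000 kb were higher in neutrophils. Their mean differences were 0.248 and -0.0156, against 0.289 and -0.119 with progenitor segments. The size of the decrease in long A segments thus depended on which track drew them.

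B segments were ordered differently by length. In the progenitor track, those of 25 to 100 kb had a mean difference of 0.00187 and those of over 100 and up to 250 kb of -0.00563, with 49.7% and 47.6% of segments higher in neutrophils. Of the 427 progenitor B segments over 1000 kb, 78.2% were higher in neutrophils, by a mean of 0.0668 from a progenitor mean of -0.864. Each autosome was centred on 0 in both tracks, so lower values in long A segments must be balanced by higher values elsewhere. The differences in long A and long B segments are therefore not independent results. The same holds for the groups by level and the parts along the autosomes below. Taken from the neutrophil track, 35.7% of B segments of 25 to 100 kb and 66.6% of those over 1000 kb were higher. The mean difference of the B segments over 1000 kb was then 0.0151. For B segments of 25 to 100 kb the difference therefore depended on which track drew the segments, with means of 0.00187 and -0.284. The neutrophil-drawn mean was larger in size than the 0.176 of A segments of that length.

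**Figure D2:**
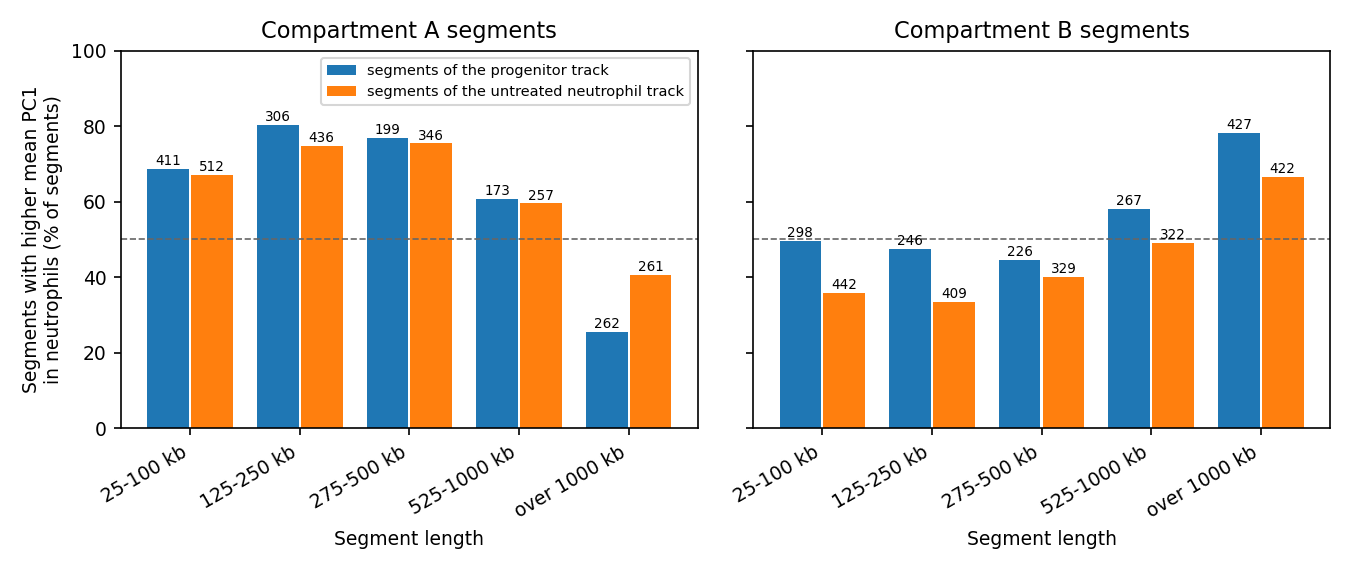
Share of segments (percent) whose mean PC1 was higher in neutrophils than in progenitors, by segment length, for segments drawn in the progenitor track and in the untreated neutrophil track, with the number of segments above each bar. Among A segments the share falls from 80.4% at over 100 and up to 250 kb to 25.6% over 1000 kb in the progenitor track, and among B segments it is highest over 1000 kb (78.2%).

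Short segments changed compartment more often than long ones. The neutrophil mean had the other sign in 135 of 717 progenitor A segments of 25 to 250 kb (18.8%) and in 18 of 634 longer ones (2.84%). The shares for B were 131 of 544 (24.1%) and 9 of 920 (0.978%). No rule of size applied here, and short segments lay nearer 0 in progenitors. The mean was 0.167 in A segments of 25 to 100 kb and 1.16 in those over 1000 kb. For B it was -0.166 and -0.864. A smaller change was therefore enough to turn the sign of a short segment. Read backwards from neutrophil segments, the progenitor mean had the other sign in 35.4% of short A segments and 47.9% of short B segments, and in 3.24% and 9.79% of longer ones. A short segment drawn in the neutrophil track thus had a counterpart of the same sign less often. The part of local noise in this was not tested. After both tracks were smoothed over 3 bins, 15.3% of short progenitor A segments and 21.7% of short progenitor B segments had the other sign in neutrophils.

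The few long segments that changed sign as a whole included a 1150 kb A segment on chromosome 13 (32725001 to 33875000). Its mean PC1 was 0.614 in progenitors, -0.161 in neutrophils, 0.109 at 15 min and 0.523 at 30 min. A 775 kb A segment on chromosome 15 (17525001 to 18300000) went from 0.324 to -0.405. The longest B segment with a positive neutrophil mean was a 950 kb segment on chromosome 2 (79175001 to 80125000), with -0.488 in progenitors, 0.179 in neutrophils, 0.418 at 15 min and 0.463 at 30 min. In the chromosome 13 segment the mean of the untreated neutrophil track alone was negative. The activated means were also negative in the chromosome 15 segment, at -0.200 and -0.127, and also positive in the chromosome 2 segment.

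Grouping the bins by progenitor PC1 placed most of the change in the middle of the scale and in the lower part of A. With 10 groups of equal size, the SD of the difference over bins was 0.0906 in the lowest group, 0.539 in the group with progenitor PC1 from 0.189 to 0.795 (group 7), and 0.209 in the highest. Of the bins in group 7, 20.7% went from A to B, the highest share among the 10 groups. From B to A went 8.43% of the bins in group 6, which spans 0, and 6.15% of those in group 5, with progenitor PC1 from -0.714 to -0.393. The strongest progenitor B and A bins hardly switched, with 0.0422% of each group switched. A switch must cross 0, so bins far from 0 in progenitors need a larger change to be called. The switched shares are therefore not independent of the grouping.

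Mean differences were small beside the spread within each group. The lowest group went from -1.13 to -1.06, a mean difference of 0.0709 that was positive on 19 of 19 autosomes. Group 8, with progenitor PC1 from 0.795 to 1.23, went from 1.02 to 0.911, a mean difference of -0.113 that was negative on 18 of 19. The highest group went from 1.63 to 1.59, with a mean difference of -0.0351 that was negative on 12 of 19. In group 8, 22.2% of bins were lower by at least 0.5 units and 7.06% were higher by as much.

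Progenitor PC1 enters both the grouping and the difference, which by itself pulls low groups up and high groups down, so bins were also grouped by other values. Grouped by the progenitor PC1 of bins 75 to 100 kb away, which share no window with the bin, the lowest group had a mean difference of 0.0596, group 8 of -0.151 and the highest of -0.0678. Grouped by the 30 min activated track, the 3 values were 0.0361, -0.0591 and 0.0175. The lowest group thus stayed above 0 and group 8 below 0, while the sign in the highest group was not kept. The lowest mean moved to group 7 when bins were grouped by the 15 min track, with -0.0606 in group 7 and -0.00751 in group 8. It also lay in group 7 when they were grouped by the mean of both compared tracks, with -0.105 and -0.0304.

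**Figure D3:**
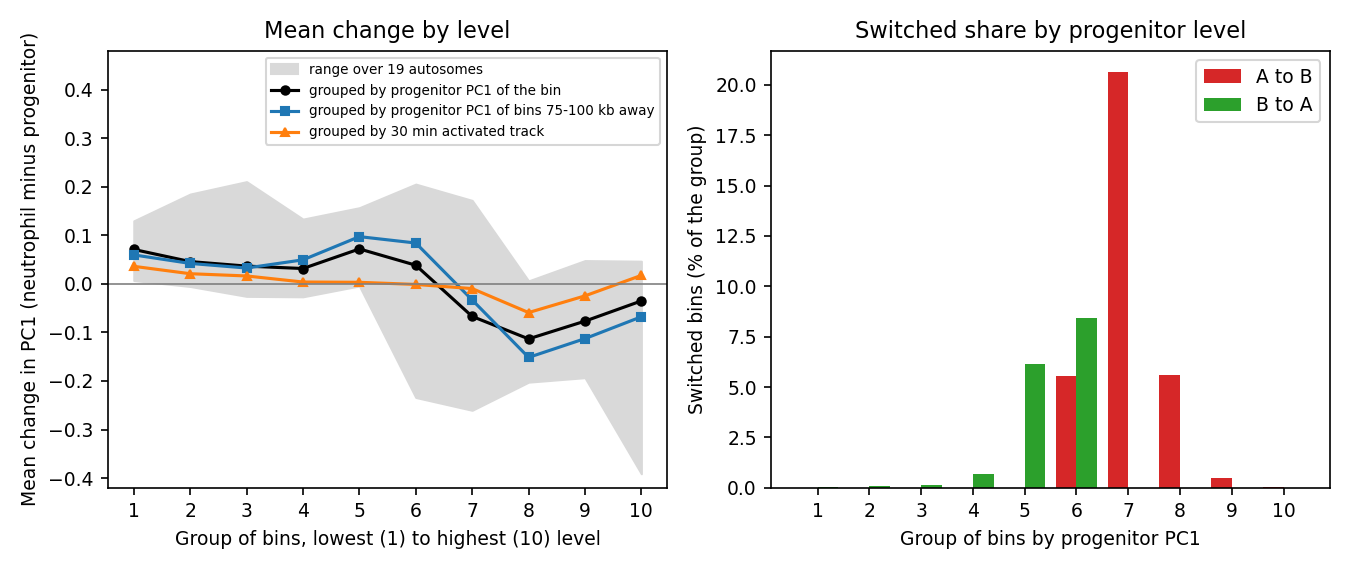
Left, mean difference in PC1 (neutrophil minus progenitor) in 10 groups of bins ordered by level, with the grouping taken from the bin's own progenitor PC1, from progenitor bins 75 to 100 kb away, or from the 30 min activated track. The grey band is the range over 19 autosomes for the first grouping. Right, the share of each progenitor group (percent) that switched in each direction. The lowest mean lies in group 8 in the 3 groupings drawn, and A to B switching peaks at 20.7% of the bins of group 7.

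Not all strong changes crossed 0. Within A, 2880 bins (7.07% of progenitor A bins) were higher by at least 0.5 units and stayed A, and 3377 (8.30%) were lower and stayed A. Within B, 577 bins (1.07%) were higher and 700 (1.29%) were lower. Strong change without a switch was thus several times more frequent in A than in B, in both directions. PC1 reached further from 0 in A, with progenitor means of 1.06 in A bins and -0.797 in B bins. A fixed size of 0.5 units thus left less room for such change within B, and its part in the contrast was not tested.

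The A to B regions with the largest area, the mean change times the length, included a whole A segment on chromosome 7 (131400001 to 132125000, 725 kb). Its mean PC1 was 0.714 in progenitors and -0.816 in neutrophils, with -0.300 at 15 min and -0.414 at 30 min. Each of its bins was lower in neutrophils, by -0.946 to -2.11. The means of the 3 neutrophil tracks were negative there and that of the progenitor track was positive, although both activated tracks lay above 0 in some bins near the centre. This region and its surroundings are shown in the plot of PC1 by distance.

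The other 7 A to B regions were interior B islands in A segments of 1275 to 8000 kb. On chromosome 7, at 147400001 to 147950000, PC1 was 0.655 in progenitors, -0.690 in neutrophils, -0.242 at 15 min and 0.411 at 30 min. On chromosome 4, at 86625001 to 87000000, it was 1.16, -0.465, -0.00929 and 0.132 in the same order. On chromosome 6, at 127650001 to 128125000, it was 0.977, -0.398, 0.251 and 0.376. In all 8 named A to B regions the untreated neutrophil track had the lowest mean of the 4. The regions were chosen by its decrease from the progenitor track, which by itself favours this. A second region of chromosome 6, at 116775001 to 117600000, was 825 kb long and went from 0.452 to -0.441, with -0.0407 and -0.250 in the activated tracks. Chromosome 2 at 74700001 to 75375000 went from 0.433 to -0.535, chromosome 4 at 7200001 to 7775000 from 0.819 to -0.250, and chromosome 9 at 103350001 to 103875000 from 0.553 to -0.578.

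The leading B to A region was an edge of a 4075 kb B segment on chromosome 1 (144675001 to 145450000, 775 kb). Its mean PC1 was -0.502 in progenitors, 0.701 in neutrophils, 0.433 at 15 min and -0.138 at 30 min. Its bins were higher in neutrophils by 0.815 to 1.52. The region adjoined a progenitor A segment, which reached further along the chromosome in neutrophils.

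Of the other 7 B to A regions, 3 lay at an edge, 3 in the interior and 1 over a whole segment. The interior region on chromosome 13 (88350001 to 88850000) had the lowest progenitor level, -0.918, and stood at 0.338 in neutrophils, -0.130 at 15 min and -0.820 at 30 min. At the edge region on chromosome 11 (9300001 to 9600000), PC1 was -0.353 in progenitors, 0.841 in neutrophils, 0.875 at 15 min and 0.683 at 30 min. The whole B segment on chromosome 9 (7225001 to 7550000) went from -0.612 to 0.582, with 0.565 and 0.341 after activation. In the last 2 regions the means of all 3 neutrophil tracks were positive, whereas on chromosome 13 the 30 min track lay close to the progenitor level. The others lay on chromosome 16 (80700001 to 81025000, -0.533 to 0.814), chromosome 2 (79700001 to 80125000, -0.376 to 0.650), chromosome 3 (31075001 to 31375000, -0.228 to 0.933) and chromosome 1 (84250001 to 84475000, -0.623 to 0.771).

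**Figure D4:**
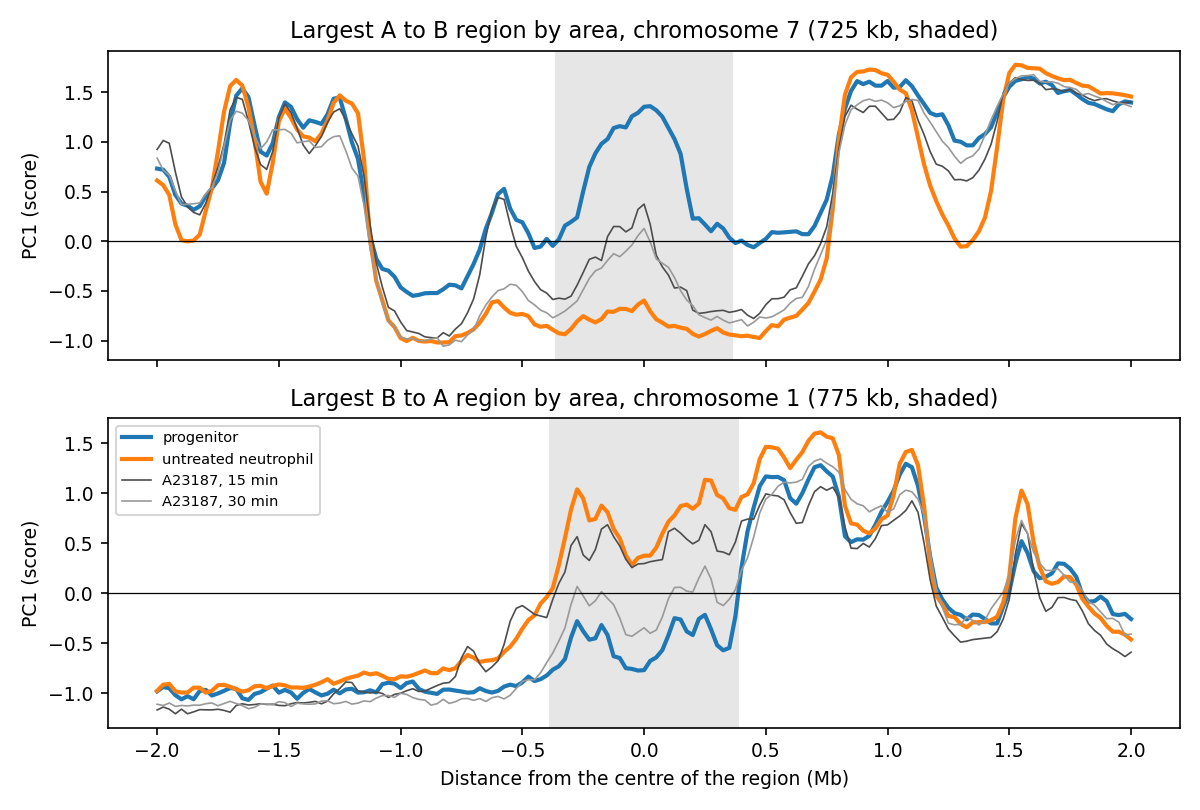
PC1 (score) in all 4 tracks against the distance in Mb from the centre of the A to B region of largest area, on chromosome 7, and of the B to A region of largest area, on chromosome 1, with the region shaded. In the upper panel the progenitor track stands above 0 across 725 kb where the untreated neutrophil track lies below 0, and in the lower panel the neutrophil A domain reaches 775 kb further than in progenitors.

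Among regions that changed strongly without a switch, an A region on chromosome 10 (95625001 to 96175000) went from 0.492 to 1.32, with 0.993 at 15 min and 0.853 at 30 min. An A region on chromosome 1 (61875001 to 62400000) went from 1.41 to 0.375, with 0.727 and 0.512. Both activated tracks lay between progenitor and untreated neutrophil in these 2 regions and in the other leading A regions of both directions, but not in all leading B regions. The regions were chosen for the size of that difference, which by itself favours values in between. The 4 leading B regions with higher PC1 went from means of -1.22 to -0.989 in progenitors to -0.399 to -0.212 in neutrophils, and 3 of them were on chromosome 13. The 4 leading B regions with lower PC1 were weak B in progenitors, from -0.411 to -0.190, and stood at -1.09 to -0.754 in neutrophils.

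Change was local. Over bins, the difference correlated with itself at a median r over autosomes of 0.735 at 100 kb, 0.255 at 500 kb and 0.0423 at 2000 kb. The progenitor level itself had 0.923, 0.623 and 0.229 at these distances. The difference between the tracks thus extended over shorter stretches than the compartments did. Switched bins were also unevenly spread over windows. Of the 473 windows of 5 Mb, the 47 with most A to B bins held 49.8% of them, and 244 windows held none. The 47 windows with most B to A bins held 48.6% of those.

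The 5 Mb window with the lowest mean difference was on chromosome 2 (70000001 to 75000000), where PC1 went from 1.12 to 0.557. All of its bins were A in progenitors and 68.5% were A in neutrophils, and the activated tracks had means of 0.914 and 0.856. Next came chromosome 13 (95000001 to 100000000), from 0.846 to 0.327, and chromosome 1 (135000001 to 140000000), from 1.21 to 0.718. The highest window was on chromosome 13 as well (85000001 to 90000000), from -0.865 to -0.442, followed by chromosome 10 (95000001 to 100000000), from -0.0736 to 0.317, and chromosome 13 (5000001 to 10000000), from -0.351 to 0.0301. Chromosome 13 thus held 3 of these 6 windows, in both directions, and it had the widest SD of the difference of any autosome, 0.431 against a median of 0.325.

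Along the autosomes, which in the mouse have the centromere at one end, the balance moved from the centromere to the distal end. Each autosome was divided into 10 parts of equal numbers of bins. In the first part, mean PC1 was -0.183 in progenitors and -0.111 in neutrophils, a difference of 0.0722 that was positive on 13 of 19 autosomes. In the last part it was 0.196 and 0.163, a difference of -0.0330 that was negative on 13 of 19. The middle 8 parts lay between -0.0170 and 0.0133. Chromosome 13 had the highest value in the first part, 0.341, and the mean difference there was 0.0584 without it. Single autosomes ranged from -0.0748 to 0.341 in the first part and from -0.208 to 0.146 in the last, so neither sign was general.

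The share of A followed the same course. It was 35.3% in progenitors and 36.8% in neutrophils in the first part, and 51.8% and 48.7% in the last. The differences were 1.50, -2.94 and -3.08 percentage points in parts 1, 9 and 10, and those of parts 1 and 10 were 2.55 and -1.53 after the neutrophil values were given the progenitor distribution. With 5 parts in place of 10, the part at the centromere had a difference of 0.590 percentage points in A share and 0.0359 in mean PC1. A to B bins made up 1.65% of the first part and 4.44% of the last, and B to A bins 2.03% and 1.29%. The distal parts held more A in progenitors to begin with, and the difference in A share there was negative on 14 of 19 autosomes.

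**Figure D5:**
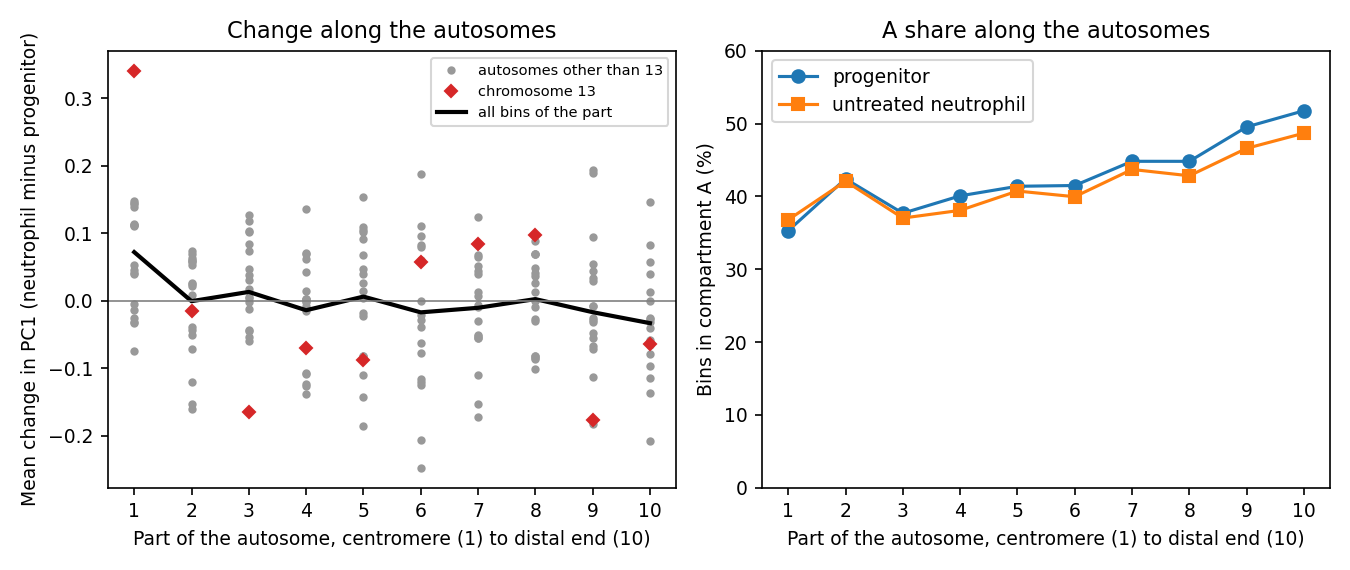
Left, mean difference in PC1 (neutrophil minus progenitor) in 10 equal parts of each autosome from the centromere to the distal end, with 1 point per autosome, chromosome 13 marked, and a line through the value over all bins of the part. Right, the share of bins in compartment A (percent) in each track. The line runs from 0.0722 in the first part to -0.0330 in the last, with single autosomes on both sides of 0 in every part.

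Among autosomes, the share of A was lower in neutrophils on 15 of 19. The largest differences were -4.99 percentage points on chromosome 6, -4.28 on chromosome 19 and -3.77 on chromosome 13. Chromosome 11 had the largest difference in the other direction, 1.45. A to B bins made up 88.4% of switched bins on chromosome 17 and 47.0% on chromosome 11. The A to B share of all bins ranged from 1.13% on chromosome 5 to 7.16% on chromosome 6, and the B to A share from 0.355% on chromosome 17 to 2.43% on chromosome 13.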

How the data were processed

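Per the submitters' processing notes, the authors' tools were HiC-Pro, Bowtie2 and HOMER and the build was mm9. Their versions and the settings behind the PC1 scores were not given in the sources used. The deposited scores are given every 25 kb over windows of 50 kb, from pooled libraries, so neighbouring bins share reads, and the depth behind each value is unknown. The 2 deposited domain lists of the untreated track were not used here, and the 148 samples of other assays were not analysed here. No annotation of build mm9 was used, so genes are not named.

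From the scores, signs, segments, borders and differences were computed with Python 3.11.15, numpy 2.4.6, pandas 2.3.3 and scipy 1.17.1, and checked on simulated tracks with planted changes. Segments end at a change of sign or a missing bin. Named regions were the 8 runs of largest area per direction among switched bins, the 4 per class among runs of at least 4 bins that changed by 0.5 units with no change of sign, and the 3 highest and 3 lowest windows of 5 Mb. Members, rules and alternatives were chosen with earlier results of these data known. With 1 pooled track per group no test was made.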

Additional observations from a re-analysis of the deposited data

How the results depend on the processing

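No paired analysis was possible because each group has 1 pooled track that carries no replicate number, and for the same reason no replicate could be left out. Of 144 alternative values for 26 results, 105 stayed within the set tolerance, 36 moved and 3 reversed; the cause was not tested unless stated. Requiring a change of 1 times the root mean square left 742 A to B and 298 B to A bins, using every second bin left 1609 and 914, as fewer bins must, and a shortest run of 4 bins left 887 B to A bins. The A to B share of switched bins was 64.7% at 0.25 times and 71.3% at 1 times the root mean square, 63.7% with single bins, 74.8% with runs of 4, 55.9% after quantile normalization, 65.3% after smoothing over 3 bins, 63.8% with every second bin, 65.6% without chromosomes 6 and 13, and 70.9% with each autosome's median difference set to 0. By level, the lowest group was at 0.0361 when grouped by the 30 min track, 0.0270 by the 15 min track and 0.0287 after quantile normalization. Group 8 was at -0.0304 when grouped by the mean of both tracks and -0.00751 by the 15 min track. The highest group reversed to 0.0573, 0.0175 and 0.0681 when grouped by the mean of both tracks, the 30 min and the 15 min track. Drawn in the neutrophil track, the segments of the other sign were 35.4% of A and 47.9% of B segments up to 250 kb and 9.79% of longer B segments, and 40.6% of A segments over 1000 kb were higher. Smoothing gave 15.3% of short A segments of the other sign and 78.3% higher, and quantile normalization gave 28.1% of short and 2.07% of longer B segments of the other sign. Extended runs gave 61.1% interior from A to B, and 8.76% whole and 32.5% interior from B to A. Borders were kept at 89.0% within 250 kb, with A shorter at 21.4%, and at 81.0% after smoothing, with A longer at 55.2%. After quantile normalization A was longer at 54.1% and shorter at 16.0%. Setting the median difference to 0, the 15 min grouping, extended runs, quantile normalization of borders and kinds, and leaving out chromosome 13 alone were chosen after seeing the data. Without counts, no limit of depth can be stated.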
